A study of Mus musculus with 6 samples.

Results

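Whole lungs of mice carrying an inducible dominant-negative BMP type 2 receptor (SM22-dnBMPR2) were set against control lungs, pooling both durations of transgene activation. The 4 transgenic pools were a female and a male pool after 1 week of activation and a female and a male pool after 8 weeks. The 2 control pools were a female and a male pool. These 6 Affymetrix arrays were all 6 arrays of the series, and each carried RNA of 3 mice, 18 mice in all. The design text gives transactivator-only mice as controls. The male control is labelled SM22-rtTA only, whereas the female control is labelled with the strain FVB/N and no genotype. The titles of the other pools name no strain. Elevated right ventricular pressure at sacrifice is recorded for all transgenic mice. The SM22 promoter, that of the smooth muscle gene Tagln, directs the reverse tetracycline transactivator to smooth muscle, so that most lung cells lie outside the targeted type. Ages, the inducer and any exposure of the controls to it are not given in the sources used here, and flash-freezing with column extraction is described for the transgenic lungs alone. Differences between groups in strain, transactivator genotype, age, exposure or handling therefore cannot be told apart from the transgene. Both durations share the same 2 control pools, and a control pool that stood apart would move both changes together.

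BMPR2 is a receptor serine-threonine kinase that pairs with a type 1 receptor to pass BMP signals to the Smad transcription factors. Mutations in its gene underlie most familial pulmonary arterial hypertension, in which small lung arteries are remodelled by growth of smooth muscle and endothelium and by deposition of matrix. A dominant-negative receptor occupies ligands and partner receptors without signalling.

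Every level below is a log2 intensity after quantile normalisation. A change is the mean log2 difference between transgenic and control pools, with the standard error of a limma model that had transgene and sex as terms. In whole lung, fewer cells of a type and less RNA per cell cannot be told apart. Above the filter on dim signals lay 27022 probe sets, which stood for 13215 genes. Median deposited intensity ran from 61.43 to 63.41 in the control pools, from 57.1 to 60.22 at 1 week and from 50.49 to 52.92 at 8 weeks. Arrays paired by sex: the female 1-week pool correlated at 0.978 with the female control and at 0.949 with the male control, and the male 1-week pool at 0.980 with the male control and at 0.944 with the female control. Differences are therefore given within a sex as well. The Y-linked Eif2s3y lay at the floor in the 3 female pools and between 9.38 and 9.78 in the 3 male pools, so the sexes were as labelled. On one probe set the X-linked Xist lay at the floor in the 3 male pools. In females it stood at 11.2 in the control, 10.9 at 1 week and 8.9 at 8 weeks. Its other probe sets in the female 8-week pool differed from the female control by −1.23 and −1.29. The cause of this lower Xist in the female 8-week pool was not tested. The airway secretoglobin Scgb1a1, a marker of lung, stood at 13.36 on every array, a value tied by the normalisation.

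No single probe set passed the test across both durations. In limma, 0 of 27022 probe sets were higher (0%) and 0 lower (0%) at an adjusted p below 0.05. The smallest adjusted p was 0.118, and 1660 probe sets (6.14%) had an unadjusted p below 0.05. All changes that follow are therefore values, not calls. Between the durations themselves, 8 weeks against 1 week, 0 probe sets (0%) passed, with a smallest adjusted p of 0.101 and 5000 (18.5%) at an unadjusted p below 0.05.

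To separate genes that shifted alike from those that reversed, a probe set was counted as shifted alike where all 4 sex-matched differences had 1 sign, each duration's mean change reached 1.5-fold (0.58 on the log2 scale) and the smaller of these was at least 0.5 of the larger. By this description 185 probe sets (0.685%), of 158 genes, were alike higher and 295 (1.09%), of 113 genes, were alike lower. As deposited, without quantile normalisation, the same rule gave 91 higher and 503 lower. A sign that turned between durations, with both sexes agreeing and 1.5-fold reached at each, was seen for 39 probe sets (0.144%) above control at 1 week and below it at 8 weeks, and for 8 (0.0296%) in the opposite order. Membership was set by these values, so no test is given for it. At the threshold, Ncs1 (0.59 at the smaller change) and Lrp6 (−0.59) lay just inside, and Egln3 (0.58) and Plscr4 (−0.58) just outside. Membership changed when 1 control pool served for both sexes. Against the male control alone, 110 of the 185 alike higher and 129 of the 295 alike lower probe sets stayed in their class, and against the female control alone 132 and 262 did. These differences were no longer matched by sex, so the choice of control cannot be told apart from sex here.

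**Figure D1:**
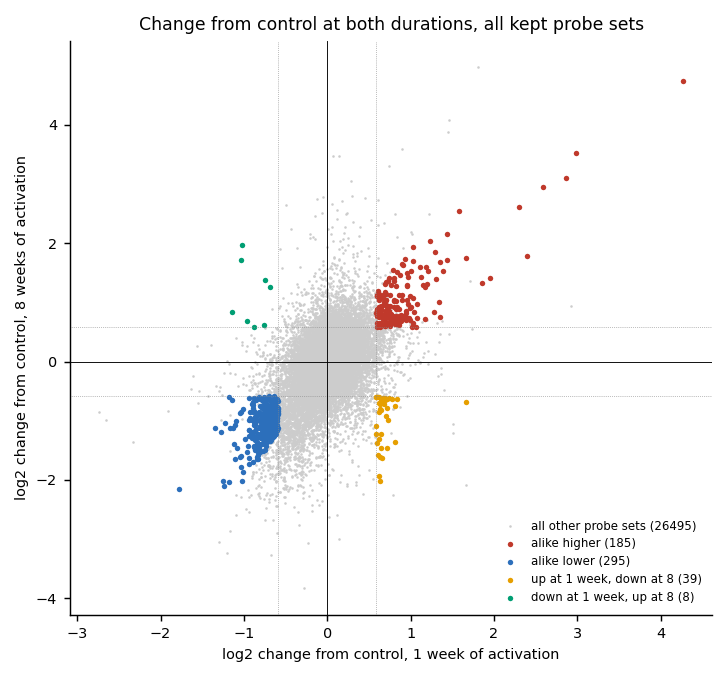
Mean log2 change from control at 1 week (horizontal axis) and at 8 weeks (vertical axis) for 27022 probe sets, 1 point each, with dotted lines at 1.5-fold. The 185 alike higher and 295 alike lower probe sets fill opposite corners and the 39 and 8 reversing ones the others. Both axes share the 2 control pools, so the lean of the cloud is not evidence of likeness.

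The widest separation from control was seen in the interferon-inducible p200 family, a cluster of neighbouring genes on chromosome 1 whose proteins bind DNA and act in innate sensing and growth control. Mndal lay at the floor of 3.95 in both controls, at 7.69 and 8.75 in the female and male pools at 1 week, and at 8.10 and 9.28 at 8 weeks. All 4 transgenic pools lay far above both controls. The change was 4.50 ± 0.32, at least 22.7-fold, with 8.46 ± 0.71 (SD, n = 4 pools) against the floor and adjusted p = 0.118 in limma. A second Mndal probe set stood at 6.27 and 7.21 in the controls, 8.69 and 9.39 at 1 week, and 9.01 and 9.70 at 8 weeks, a change of 2.45 ± 0.17 (adjusted p = 0.118). The promoter of Mndal is shown because this gene had the largest change, with the match to an interferon-response-like motif in capitals. The RefSeq window (GRCm38.p6) covers chr1:173879909-173880208 on the minus strand, from 250 bases before to 50 bases after the annotated start, 5′ to 3′ along the gene, and is the one of 2 Mndal entries that holds the motif.
Mndal promoter: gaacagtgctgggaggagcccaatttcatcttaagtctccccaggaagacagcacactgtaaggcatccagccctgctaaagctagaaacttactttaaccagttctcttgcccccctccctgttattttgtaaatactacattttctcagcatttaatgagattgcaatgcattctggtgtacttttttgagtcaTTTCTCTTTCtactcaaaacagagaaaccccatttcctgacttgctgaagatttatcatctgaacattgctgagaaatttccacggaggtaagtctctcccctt
The motif searched on both strands was GAAA, any 2 bases, and GAAA again. It occurred in 5 of 7 promoter entries of the 5 measured family members with an entry (Ifi203, Ifi207, Ifi213 and Mndal), against 3.44% of all 32851 promoters of this length.

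The neighbours of Mndal did not share 1 direction. In the gene order of the reference table, Ifi213 came first. It stood at 6.19 and 6.15 in the controls, 7.19 and 7.13 at 1 week and 7.35 and 7.21 at 8 weeks, a change of 1.05 ± 0.13 with no overlap between groups. Ifi209 came next, with 4.78 and 4.24 in the controls, 7.18 and 7.80 at 1 week and 7.91 and 8.15 at 8 weeks on one probe set (3.25 ± 0.32, adjusted p = 0.335) and a change of 0.23 ± 0.31 on the other, where the groups overlapped. Ifi207 differed little at 1 week (0.14) and stood at 1.73 at 8 weeks. Ifi204 ran the opposite way: 6.81 and 7.26 in the controls, 6.17 and 5.21 at 1 week and 6.05 and 5.77 at 8 weeks, a change of −1.23 ± 0.30 with every transgenic pool below both controls. Beyond Mndal, Ifi203 stood at 0.58 ± 0.15 with overlapping groups and Ifi202b at −0.35 ± 0.47. A pair of probe sets that match several members at once (Ifi205 and Ifi211, in 1 case also Mndal and Ifi204) stood at 1.28 and 1.79 and were alike higher. Members of this family are near-identical in parts, so such probes cannot assign a signal to 1 gene. Another 3 shared probe sets, of Ifi203 and its pseudogene, stood lower, at −0.36, −0.34 and −0.25, the last below both controls in all pools. Of the 13 listed members 6 were measured on probe sets of their own, and Ifi202b was not on the list. The wider list of interferon-stimulated genes had a median change of 0.13 over 17 measured genes, which ran from −0.02 to 0.25 over the alternatives, beside 0.05 over all 13215 genes. In it 3 of 17 lay above both controls in all transgenic pools (beside 8.37% of all genes), and the antiviral enzyme Oas1a (0.74 ± 0.18) was alike higher.

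Further genes of the highest rank came from unrelated roles. Phgdh, the first enzyme of serine synthesis, stood at 4.65 and 5.38 in the controls, 7.70 and 7.51 at 1 week and 7.78 and 8.16 at 8 weeks on a probe set of the cross-hybridising _x_at kind (2.77 ± 0.25, adjusted p = 0.315). A further probe set of this kind, shared with the predicted gene Gm6756, stood at 2.98 ± 0.20 (adjusted p = 0.118). Another, shared with Gm8096, stood at 0.25 at 1 week and 1.97 at 8 weeks, overlapping control and not alike. The 3 other probe sets of Phgdh alone ranged from 0.15 to 0.59, and over its brightest one the groups overlapped. The list of serine and one-carbon genes, Phgdh included, had a median change of 0.11 over 17 measured genes. At the brightest probe sets Psph (0.25 ± 0.13) was the 1 member above both controls in every transgenic pool (5.88% of the list, beside 8.37% of all genes).

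Fmo5, a flavin monooxygenase, read 3.95 (the floor) and 4.87 in the controls, 6.72 and 6.90 at 1 week and 5.92 and 6.48 at 8 weeks. With 1 control at the floor, its change of 2.09 ± 0.29 is a lower bound. Its 2 other probe sets stood at 0.04 and 0.17. Of 12 measured monooxygenase and cytochrome P450 genes, 0 lay above both controls in all pools at their brightest probe sets (beside 8.37% of all genes). Below both controls lay 2 (beside 3.5%), and the list's median was −0.02 at 1 week and −0.38 at 8 weeks. Arsk, a sulfatase, was higher on both of its probe sets, 1.71 ± 0.20 and 0.82. Psmc3ip, which assists homologous recombination, likewise stood at 1.52 ± 0.32 and 1.48 on its 2 probe sets.

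Immune-related genes of this rank were less even. Saa3, an acute-phase protein, ranked high because its smallest difference was 1.44, but it was not alike: 1.46 at 1 week and 4.09 at 8 weeks, with 6.15 and 6.45 in the controls, 7.63 and 7.89 at 1 week and 10.42 and 10.36 at 8 weeks. Ccr2, the receptor that draws monocytes from blood, had 6.88 in the female and 4.43 in the male control, 8.58 and 6.63 at 1 week and 7.97 and 6.17 at 8 weeks. Its female levels exceeded its male levels in each group, so that the groups overlapped although each sex-matched difference was at least 1.09 (1.69 ± 0.26). The 3 other Ccr2 probe sets stood at 0.51 (the brightest), 0.18 and 0.55, all overlapping control and not alike. The lipoxygenase Alox15 lay at the floor in both controls, at 7.62 in the male 8-week pool and between 4.94 and 5.40 in the other transgenic pools. Its mean was at least 3.64-fold higher, raised by the male 8-week pool. It was not alike (1.22 at 1 week and 2.50 at 8 weeks).

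**Figure D2:**
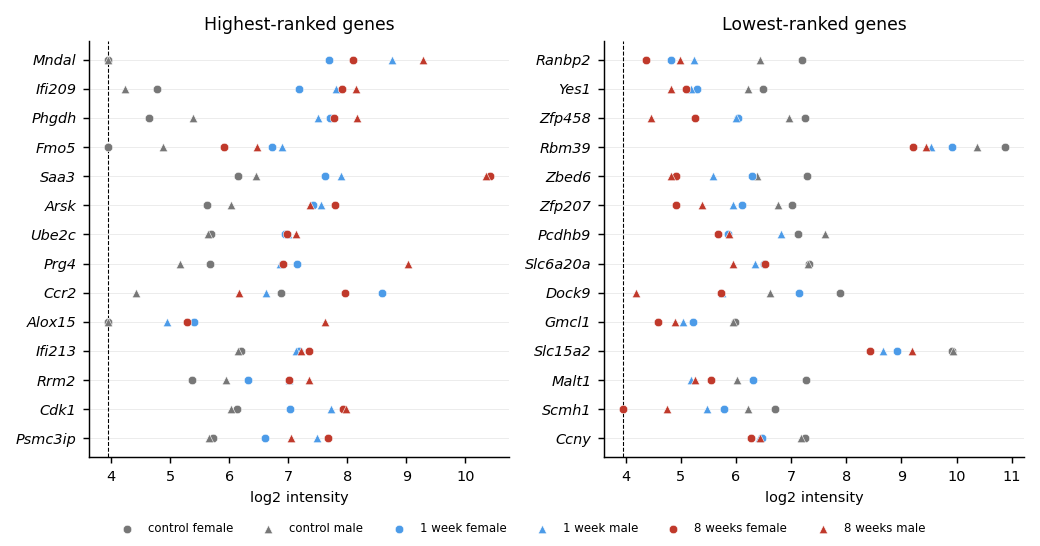
Log2 intensity in each pool (grey control, blue 1 week, red 8 weeks; circles female, triangles male) for the 14 highest and 14 lowest genes ranked by their smallest sex-matched difference. The dashed line is the floor of 3.95. Mndal and Alox15 have both controls on it, and the groups overlap for Ccr2, Dock9 and Malt1.

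Cell cycle genes formed the fullest group among those alike higher. Of 30 listed genes 22 were measured, and 15 of the 22 lay above both controls in all 4 transgenic pools, beside 1106 of 13215 genes (8.37%). A further 463 genes (3.5%) lay below both controls, none of them in this list. Members alike higher at the brightest probe set numbered 9 of 22, beside 105 of all genes (0.795%). The median change was 0.64 at 1 week and 0.79 at 8 weeks, against 0.03 and 0.08 over all genes, and stayed between 0.56 and 0.82 for both durations together under every alternative run. None of the 22 passed the test, and 12 had an unadjusted p below 0.05.

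Ube2c, which adds ubiquitin to mitotic proteins for the anaphase-promoting complex, had the tightest values. It stood at 5.69 and 5.64 in the controls and between 6.95 and 7.13 in the 4 transgenic pools. The gap exceeded the spread within either group, with 7.02 ± 0.08 (SD, n = 4) against 5.66 ± 0.04 (n = 2) and a change of 1.35 ± 0.13 (adjusted p = 0.335). Cdk1, the kinase that starts mitosis, stood at 6.14 and 6.04 in the controls, 7.04 and 7.72 at 1 week and 7.92 and 7.98 at 8 weeks (1.57 ± 0.28). Top2a, which untangles replicated DNA, went from 5.83 and 5.68 to 6.57 and 7.29 at 1 week and 7.11 and 7.60 at 8 weeks (1.39 ± 0.26). In both genes the female 1-week pool was the lowest transgenic pool and still lay above the controls. The proliferation marker Mki67 had 1.13 ± 0.24, and the chromosomal passenger Birc5 1.08 ± 0.33. The nucleotide reductase subunit Rrm2 had 1.27 ± 0.24 on one probe set and 0.87 ± 0.20 on its brightest, and the spindle protein Nusap1 0.78 ± 0.13. Of the replication helicase, Mcm6 (0.73 ± 0.21) was alike higher and Mcm2 (0.31 ± 0.15) and Mcm5 (0.51 ± 0.23) were not, and the sliding clamp Pcna stood at 0.19 ± 0.14. Thymidylate synthase Tyms (−0.27 ± 0.36) was the 1 member with a negative value. Cell cycle genes outside the list were also alike higher, named here after their values were seen: Cep55 (1.28), Anln (0.99), Ect2 (0.94), Prc1 (0.86) and Kif23 (0.76), which act in cell division, with overlapping groups for Ect2.

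The promoters of Ube2c and Cdk1 are shown because mitotic genes are commonly driven through CCAAT boxes and a cell cycle homology region (CHR), and both are marked in capitals. The motifs searched on both strands were CCAAT and TTTGAA, which do not overlap each other here. The windows are chr2:164769679-164769978 on the plus strand for Ube2c and chr10:69352863-69353162 on the minus strand for Cdk1 (RefSeq, GRCm38.p6).
Ube2c promoter: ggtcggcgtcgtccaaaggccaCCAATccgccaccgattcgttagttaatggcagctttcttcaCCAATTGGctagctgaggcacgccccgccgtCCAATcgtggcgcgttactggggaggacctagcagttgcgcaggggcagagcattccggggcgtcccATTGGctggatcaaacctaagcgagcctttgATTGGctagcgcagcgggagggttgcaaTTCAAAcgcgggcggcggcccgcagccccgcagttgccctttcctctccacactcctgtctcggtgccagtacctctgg
Cdk1 promoter: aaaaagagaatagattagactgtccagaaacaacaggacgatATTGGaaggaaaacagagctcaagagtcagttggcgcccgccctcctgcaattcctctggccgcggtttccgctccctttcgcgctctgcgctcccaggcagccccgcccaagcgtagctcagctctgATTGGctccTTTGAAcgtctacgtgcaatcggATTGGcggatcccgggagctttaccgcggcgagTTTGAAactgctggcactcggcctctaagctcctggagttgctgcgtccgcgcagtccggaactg
Ube2c held 6 CCAAT boxes, 2 of them overlapping on opposite strands, and 1 CHR. Cdk1 held 3 CCAAT boxes and 2 CHRs. Among the 19 measured cell cycle genes with an entry, 16 held CCAAT and 10 held TTTGAA, beside 37.4% and 17.9% of all promoters.

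Markers of dividing cells can come from leukocytes as well as from resident cells. Over the macrophage and monocyte list (24 measured of 27) the summed level was 14.28 and 14.54 in the controls, 14.57 and 14.31 at 1 week and 15.03 and 14.93 at 8 weeks. Its range at 1 week overlapped the controls and at 8 weeks did not, whereas the summed cell cycle level (11.73 and 11.80 in the controls) was 12.04 and 12.29 at 1 week and 12.37 and 12.42 at 8 weeks. The summed neutrophil level was 12.20 and 12.17 in the controls, 12.15 and 12.41 at 1 week and 13.60 and 13.69 at 8 weeks. The part of these cells in the cell cycle values was not tested.

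Circadian clock genes stood on both sides of control. The clock runs as a loop in which Arntl and Clock activate genes through E-boxes, the Per and Cry proteins and Ciart repress them, and Dbp, Tef and Hlf carry the rhythm to output genes. Of the 13 repressor and output genes, all measured, 8 lay below both controls in all 4 transgenic pools (beside 3.5% of all genes) and 3 were alike lower (Dbp, Ciart and Per2), beside 28 of all genes (0.212%). Their median change was −0.50 at 1 week and −0.55 at 8 weeks, and for both durations together it ran from −0.59 to −0.31 over the alternatives. Of these 13 genes 5 had an unadjusted p below 0.05 and 0 passed.

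Dbp, a transcription factor whose RNA swings widely over the day, stood at 10.96 and 10.86 in the controls, 10.32 and 9.89 at 1 week and 10.62 and 9.40 at 8 weeks (−0.85 ± 0.25). Its other probe set stood at −0.80. Ciart, a repressor of the Arntl and Clock pair, had 7.66 and 7.60 in the controls, 7.05 and 6.44 at 1 week and 7.24 and 6.56 at 8 weeks (−0.81 ± 0.18). For both genes the male transgenic pools were the lower ones at each duration. Per2 stood at 7.91 and 8.86 in the controls and between 7.28 and 7.86 in the transgenic pools (−0.73 ± 0.31), with sex-matched differences of −0.22 and −0.09 in females and −1.01 and −1.59 in males. Hlf, the output factor with the largest value (−1.19 ± 0.59), was set mainly by the male 8-week pool, at 6.33 against 8.27 to 8.52 in the other transgenic pools and 8.86 and 9.27 in the controls. Per3 (−0.65 ± 0.26), Tef (−0.41 ± 0.17), Nr1d2 (−0.39 ± 0.16) and Cry2 (−0.24 ± 0.12) also had every transgenic pool below both controls. Nr1d1 (−0.49 ± 0.17), Per1 (−0.42 ± 0.24) and Cry1 (−0.35 ± 0.31) overlapped, and Bhlhe41 stood at 0.27 ± 0.18.

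On the activator side the values were uneven. Nfil3, which despite its place in this list represses the targets of Dbp, stood at 5.69 and 5.16 in the controls, 5.78 and 6.06 at 1 week and 7.01 and 7.40 at 8 weeks (1.14 ± 0.52). Arntl stood at 5.24 and 4.96 in the controls, and 4.86 and 7.42 in the female and male pools at 8 weeks, so that the female 8-week pool lay below the controls (1.00 ± 0.54). Over the 18 settings run that kept it, leaving out each array among them, the Arntl change went from 0.06 to 1.93. Clock itself stood at 0.16 ± 0.14 and Rora at −0.14 ± 0.14. The hour of the day at which lungs were collected is not given in the sources used here.

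Promoters of Ciart and Arntl are shown as 1 gene from each side of the loop. E-boxes (CACGTG, its own reverse complement) are in capitals for Ciart and the ROR half-site AGGTCA, bound by the receptors that drive Arntl, for Arntl. The windows are chr3:95882179-95882478 on the minus strand and chr7:113207261-113207560 on the plus strand (RefSeq, GRCm38.p6), the second being the one of 2 Arntl entries that holds the motif.
Ciart promoter: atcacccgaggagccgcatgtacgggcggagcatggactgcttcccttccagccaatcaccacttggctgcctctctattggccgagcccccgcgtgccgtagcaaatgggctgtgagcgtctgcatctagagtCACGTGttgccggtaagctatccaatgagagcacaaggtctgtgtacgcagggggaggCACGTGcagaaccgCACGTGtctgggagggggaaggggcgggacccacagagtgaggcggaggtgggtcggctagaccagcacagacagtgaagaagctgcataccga
Arntl promoter: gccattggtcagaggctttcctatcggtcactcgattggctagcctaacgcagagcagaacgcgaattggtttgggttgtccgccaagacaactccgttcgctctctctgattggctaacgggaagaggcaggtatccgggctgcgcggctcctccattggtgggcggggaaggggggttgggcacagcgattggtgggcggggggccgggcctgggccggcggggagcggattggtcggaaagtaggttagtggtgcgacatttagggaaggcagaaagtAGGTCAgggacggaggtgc
Ciart held 3 E-boxes. The 11 repressor and output genes with an entry had 13 promoter entries. At least 1 E-box was held by 6 of these (of Bhlhe41, Ciart, Cry1, Per1 and Tef), beside 7.15% of all promoters. AGGTCA, searched on both strands, was held by 3 of the 9 promoter entries of the 5 activator-list genes (Arntl, Clock and Nfil3), beside 16.3% of all promoters.

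**Figure D3:**
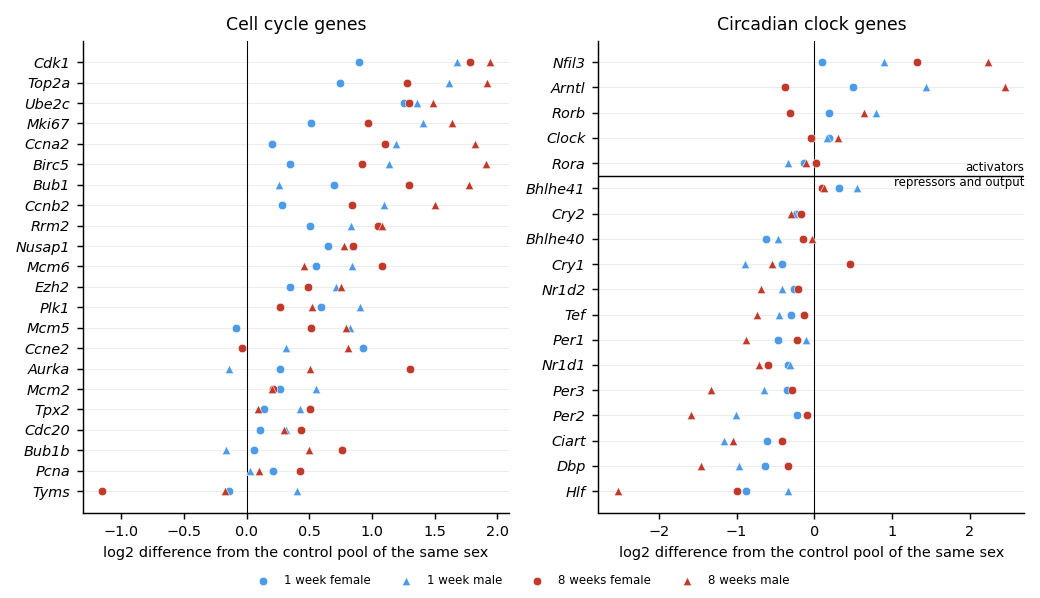
Log2 difference of each transgenic pool from the control pool of the same sex (blue 1 week, red 8 weeks; circles female, triangles male) for the 22 measured cell cycle genes and the 18 measured clock genes, ordered by change. Most cell cycle points lie right of 0 (15 genes have every pool above both controls), and 11 of the 13 clock repressor and output genes have all 4 points left of 0.

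Collagen and elastic fibre genes, which form the wall of remodelled vessels, were higher by small amounts in many members and by more in a few. Of 32 listed genes 30 were measured, and 14 of the 30 lay above both controls in all transgenic pools (beside 8.37% of all genes) and 0 below (beside 3.5%), with a median change of 0.28 at 1 week and 0.16 at 8 weeks. The median for both durations was 0.14 as deposited and 0.32 with arrays centred on their medians, so its size depended on the scaling. Elastin, the elastic fibre protein of arterial walls (Eln), stood at 9.31 and 9.29 in the controls, 10.60 and 10.66 at 1 week and 9.84 and 10.78 at 8 weeks, 1.17 ± 0.26, with 1.06 on a second probe set. Col15a1, a basement membrane collagen, stood at 6.27 and 6.07 in the controls, 7.12 and 7.37 at 1 week and 6.97 and 7.32 at 8 weeks (1.03 ± 0.17). The lubricating proteoglycan Prg4 had 5.68 and 5.16 in the controls, 7.16 and 6.85 at 1 week and 6.91 at 8 weeks in females, with 9.03 in the male 8-week pool (2.07 ± 0.65). These 3 were the alike members, and Timp1, an inhibitor of matrix proteases, was higher mainly at 8 weeks (0.68 at 1 week and 2.34 at 8 weeks). Fibrillar collagens differed less at their brightest probe sets, with Col1a1 at 0.46 ± 0.29, Col3a1 at 0.30 ± 0.16 and Col5a2 at 0.30 ± 0.13. Dimmer probe sets of Col3a1 (0.83) and Col1a1 (0.78) met the alike rule. None passed the test.

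Growth factor genes outside the lists also met the rule, named after their values were seen. Igf1, the insulin-like growth factor, was alike higher on 4 probe sets, at 0.96, 0.89, 0.87 and 0.74, with every transgenic pool above both controls on each. Pdgfc (0.72), Sfrp1 (0.70), an inhibitor of Wnt ligands, and Wnt5a (0.62) were in the same class. Among 17 measured vasoactive genes, Slc6a4, the serotonin transporter long studied in pulmonary hypertension, stood at 5.49 and 5.95 in the controls, 6.10 and 6.58 at 1 week and 6.96 and 6.67 at 8 weeks (0.86 ± 0.26). At the brightest probe sets Slc6a4 was the 1 alike member of its list. A dimmer probe set of Nos1, also in this list, was alike higher at 0.82. The serotonin receptors Htr1b (0.49 ± 0.15) and Htr2b (0.38 ± 0.16) overlapped with control, endothelin (Edn1) stood at −0.04 ± 0.14, and Gucy1a1, a subunit of the nitric oxide receptor, at −0.20 ± 0.14 with every transgenic pool below both controls.

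Few genes of the BMP pathway itself lay wholly above or below control, and few of all genes did (8.37% above and 3.5% below). Lower in all 4 sex-matched differences were 3 of 10 measured receptors, 3 of 15 ligands and antagonists and 7 of 17 targets and Smads, beside 1305 of all 13215 genes. Higher in all 4 were 0, 2 and 1, beside 2459 of all genes. Bmpr2 was read by 3 probe sets. The brightest stood at 11.99 and 12.15 in the controls, 11.85 and 12.14 at 1 week and 11.79 and 11.84 at 8 weeks, −0.17 ± 0.14. The second stood at 8.67 and 8.60 in the controls, 7.92 and 8.47 at 1 week and 7.73 and 7.68 at 8 weeks (−0.68 ± 0.25, unadjusted p = 0.0369, adjusted p = 0.752), below both controls in all 4 pools, and the third at −0.11 ± 0.18. Whether any of these probes reads the transgene is not given in the sources used here, so they do not check the labels. Tagln, whose promoter drives the transactivator, stood at 0.02 ± 0.18.

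Of the 10 type 1 and type 2 receptor genes and co-receptors, all measured, 0 lay wholly above and 0 wholly below control at their brightest probe sets (beside 8.37% and 3.5% of all genes). Their median change was −0.17. The largest in size was the co-receptor Hjv at −0.24 ± 0.56, and the endothelial receptor Acvrl1 stood at −0.22 ± 0.19. Of 15 measured ligands and antagonists, the secreted protein Fstl1 (0.39 ± 0.14) lay above control and the antagonist Chrdl1 (−0.23 ± 0.14) below in every pool. That is 6.67% each way, beside the same shares of all genes. Bmp6, which came next in size after follistatin (Fst −0.64 ± 0.35, groups overlapping), stood at −0.43 ± 0.27. Among 17 measured targets and Smads, Id1, a direct target of BMP signalling, stood at 11.07 and 11.05 in the controls, 11.04 and 10.69 at 1 week and 10.69 and 10.42 at 8 weeks (−0.35 ± 0.18, adjusted p = 0.752). At the brightest probe sets Id1 was the 1 target below both controls in all 4 pools (5.88% of the list, beside 3.5% of all genes), the female 1-week pool by the least. A dimmer probe set of Smurf2, also in this list, was alike lower at −0.88 (−0.61 at 1 week and −1.16 at 8 weeks), below both controls in all pools. Inhibitory Smad6 stood at −0.57 ± 0.24 (−0.33 at 1 week and −0.82 at 8 weeks) and Id4 at −0.58 ± 0.38, both overlapping control. Id3 stood at −0.05 ± 0.12 and the 3 probe sets of Id2 at −0.27, −0.16 and 0.05. Atoh8, a target in endothelium, was alike higher at 0.78 ± 0.23, its male control (4.92) being the lowest pool.

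Several of the genes that ranked lowest did so at a probe set that other probe sets of the gene did not match. Ranbp2, a nuclear pore protein, stood at 7.19 and 6.43 in the controls, 4.83 and 5.24 at 1 week and 4.36 and 4.97 at 8 weeks (−1.96 ± 0.33), while its 3 other probe sets ranged from −0.61 to −0.08. Yes1, a Src-family kinase, stood at −1.26 ± 0.16 against −0.10 and 0.04 on its others, and the cyclin Ccny at −0.82 ± 0.14 against −0.44 to 0.23 on 5 others. Slc15a2, a peptide transporter, had 9.91 and 9.94 in the controls, 8.93 and 8.67 at 1 week and 8.43 and 9.19 at 8 weeks (−1.12 ± 0.22). Its 2 other probe sets stood at 0.55 and 0.69, so that with 1 value per gene its change was 0.04. Most probe sets of Rbm39, a splicing factor, lay together, at −1.10 ± 0.24 on the named one and with a median of −1.05 over its 11 others (−1.41 to 0.06). It stood at 10.88 and 10.38 in the controls, 9.91 and 9.54 at 1 week and 9.21 and 9.45 at 8 weeks. Of the Rbm39 probe sets 6 were alike lower, while the brightest stood at −0.22 with overlapping groups. Zfp458, Zbed6, Zfp207, Dock9 and Scmh1 stood between −1.67 and −1.30 and were not alike, with −1.09 to −0.81 at 1 week and −2.30 to −1.74 at 8 weeks. On its other probe sets Dock9 stood at −0.35 (the brightest), −0.28 and −0.26, and Scmh1 at 0.23 (the brightest) and −0.86. Those of Zfp207 read −0.13 (the brightest), −0.44, −0.57 and −1.33, and that of Zbed6, brighter than the named one, −0.52. Pcdhb9 (−1.31), Slc6a20a (−0.98), Gmcl1 (−1.03) and Malt1 (−1.07) were alike lower, with the groups of Malt1 overlapping. Other probe sets of Gmcl1 stood at 0.20 (the brightest), 0.15, 0.08 and −0.85, and those of Malt1 at 0.16 and −0.38.

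Annotation differed between the classes. Of the 295 alike lower probe sets, 169 (57.3%) carried no gene symbol, compared with 13 of 185 (7.03%) alike higher and 12.4% of all kept probe sets. At their brightest probe sets, 21 measured genes of RNA processing had a median change of −0.11, beside 0.05 over all genes. Of these, 7 were lower and 0 higher in all 4 sex-matched differences, beside 1305 lower of all 13215 genes. The helicase Ddx5 (−0.15 ± 0.12) was the 1 member below both controls in all pools (beside 3.5% of all genes), and 0 were alike. The nuclear RNA Malat1 stood at −1.52 and −0.90 on 2 probe sets that met the rule, and on its brightest stood at −0.05 at 1 week and −1.60 at 8 weeks. At 1 value per gene, 26 genes were alike lower and 105 alike higher.

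Among immune genes, the complement, macrophage and neutrophil lists had higher medians at 8 weeks than at 1 week and 1 alike member each at the brightest probe sets. Of 14 measured complement and acute-phase genes, 7 lay above both controls in all transgenic pools, beside 8.37% of all genes. Their median was 0.37 at 1 week (0.19 without the female control and 0.55 without the male control) and 0.86 at 8 weeks. The C5a receptor C5ar1 was the alike member, at 6.05 and 6.03 in the controls, 6.82 and 7.42 at 1 week and 6.66 and 6.89 at 8 weeks (0.91 ± 0.21). The C1q chains, which start the classical pathway, stood together at 0.67 ± 0.24 (C1qa), 0.71 ± 0.29 (C1qb) and 0.67 ± 0.25 (C1qc), and the lipopolysaccharide-binding protein Lbp at 0.69 ± 0.15. Macrophage and monocyte genes had a median of 0.22 at 1 week and 1.43 at 8 weeks. The sexes differed in sign at 1 week, with 0.54 in females and −0.17 in males, and the 1-week median was −0.17 without the female control or the female 1-week pool. Above both controls in every pool lay 2 of 24, a share like the 8.37% of all genes. The chitinase-like Chil4 (1.17 ± 0.37) was alike higher there, and Chil3 (2.67 ± 1.17) had the largest value but overlapping groups. Neutrophil genes had 0.16 and 1.46, and the lactoferrin gene Ltf (0.83 ± 0.32), also made by airway glands, was the 1 alike member.

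Immediate-early genes, which switch on within minutes of stimulation, showed how far the female control set some values. Their median change was −0.20 at 1 week and −0.41 at 8 weeks over 30 measured genes, and 6 of 30 lay below both controls in all pools, beside 3.5% of all genes. Egr1 stood at 12.06 and 11.50 in the female and male controls, 10.59 and 11.33 at 1 week and 10.36 and 11.46 at 8 weeks (−0.85 ± 0.34). It was the alike member, yet its male pools differed from the male control by −0.17 and −0.04. Atf3 stood at 9.41 in the female control and between 7.42 and 7.96 in the other 5 pools. Without the female control, the list's median for both durations was −0.06, and without the male control it was −0.49. The chemokines Cxcl1 and Cxcl2 likewise stood at 11.05 and 10.55 in the female control and at 6.41 and 3.95 (the floor) in the male control.

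In further lists, the share of genes above both controls is to be read beside 8.37% of all genes. Cholesterol synthesis genes had 5 of 15 measured members above both controls, among them Cyp51 (0.63 ± 0.28) and Sqle (0.36 ± 0.13). Mitochondrial respiratory chain genes had 5 of 20, all at 0.21 or less, with a list median of 0.03 as deposited and 0.21 with arrays centred on medians. Adipose genes had 5 of 16, with the lipid droplet protein Cidec (0.90 ± 0.30) alike. Platelet genes stood at 0.76 at 1 week and −0.09 at 8 weeks, and erythroid genes at 0.74 and 0.01, the last being −0.10 as deposited, 0.29 in females and −0.27 in males.

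**Figure D4:**
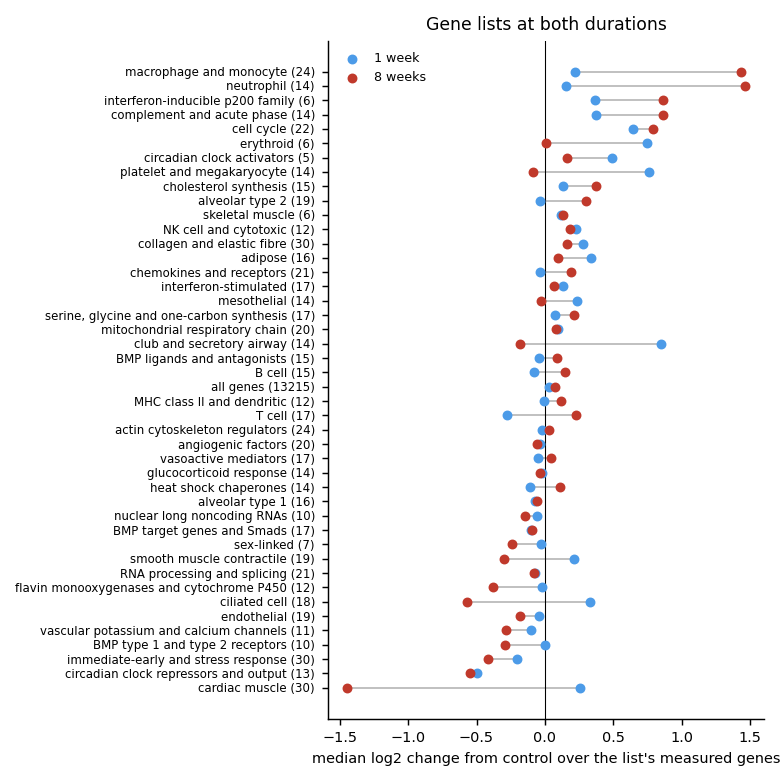
Median log2 change from control at 1 week (blue) and 8 weeks (red) over the measured genes of each list (their number in brackets) and over all 13215 genes. Cell cycle medians lie at 0.64 and 0.79, clock repressor and output medians at −0.50 and −0.55, and cardiac muscle medians at 0.25 (0.01 in females and 0.50 in males) and −1.44. The control pools are shared by both colours.

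Genes that reversed between durations included members of the muscle lists. At the brightest probe set, 29 of all genes (0.219%) lay above control at 1 week and below at 8 weeks, and 5 of 30 measured cardiac muscle genes were among them (Sln, Actn2, Myl4, Myl7 and Mb), with 1 of 19 smooth muscle genes (Actg2). Sarcolipin (Sln), an inhibitor of the calcium pump in atrial muscle, stood at 9.25 and 9.48 in the controls, 9.97 and 10.01 at 1 week and 5.99 and 8.88 at 8 weeks. The atrial myosin light chain Myl4 stood at 10.51 and 10.53 in the controls, 11.03 and 11.22 at 1 week and 7.96 and 9.93 at 8 weeks. In both genes the female 8-week pool was the lowest by far. The differences between 8 weeks and 1 week were −2.55 ± 0.74 and −2.18 ± 0.51 (adjusted p = 0.199 and 0.162 in limma). Srl, of the muscle calcium store, stood at −1.97 ± 0.34 between durations (adjusted p = 0.122). The cardiac list as a whole had a summed level of 14.45 and 14.40 in the controls, 14.61 and 14.92 at 1 week and 12.51 and 13.66 at 8 weeks. Its median was 0.01 in females and 0.50 in males at 1 week, and −2.46 in females and −0.71 in males at 8 weeks. Heart muscle reaches the lung along the pulmonary veins, and its part in these pools was not tested.

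Actg2, the enteric smooth muscle actin, had 9.20 and 9.24 in the controls, 9.90 and 9.97 at 1 week and 8.60 and 8.58 at 8 weeks, −1.35 ± 0.13 between durations (adjusted p = 0.101). Female and male pools nearly coincided in each group. Cd209g, a C-type lectin, stood at 6.14 and 5.80 in the controls, 6.80 and 6.69 at 1 week and 5.54 and 5.12 at 8 weeks (−1.41 ± 0.15, adjusted p = 0.101), and the myosin-binding protein Mybphl at −1.46 ± 0.15 (adjusted p = 0.101). Over the smooth muscle list the medians were 0.21 at 1 week (0.0041 in females and 0.34 in males) and −0.30 at 8 weeks, and over the 18 measured ciliated cell genes 0.33 and −0.57, with 0 ciliated genes reversing by 1.5-fold at the brightest probe set. Zmynd10, Dnaaf1, Cfap57 and Iqcg, of the ciliary axoneme and its assembly, did reverse on the probe sets that met the rule, and are named after their values were seen.

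In the opposite order, below control at 1 week and above at 8 weeks, stood 8 genes. Spata5l1, an AAA ATPase, read 6.11 and 5.04 in the controls, 5.14 and 3.95 (the floor) at 1 week and 7.42 and 7.16 at 8 weeks, 2.75 ± 0.26 between durations (adjusted p = 0.101). The lectin receptor Clec4b1 had 5.52 and 5.82 in the controls, 4.56 and 5.30 at 1 week and 6.69 and 7.41 at 8 weeks (2.12 ± 0.17, adjusted p = 0.101). Cxcl10, an interferon-induced chemokine, had 5.99 and 5.48, then 4.85 and 5.25, then 6.72 and 7.28 (1.95 ± 0.29, adjusted p = 0.110). For Clec4b1 and Cxcl10 all 1-week pools lay below both controls and all 8-week pools above, while for Spata5l1 the female 1-week pool lay above the male control. Wif1, a Wnt inhibitor, stood at 1.47 ± 0.20 between durations, Mpp4 at 1.66 ± 0.32 and the T cell surface protein Cd6 at 1.37 ± 0.43. The other 2 were the cytokine Il6 (2.99) and Ankrd63 (1.97).

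**Figure D5:**
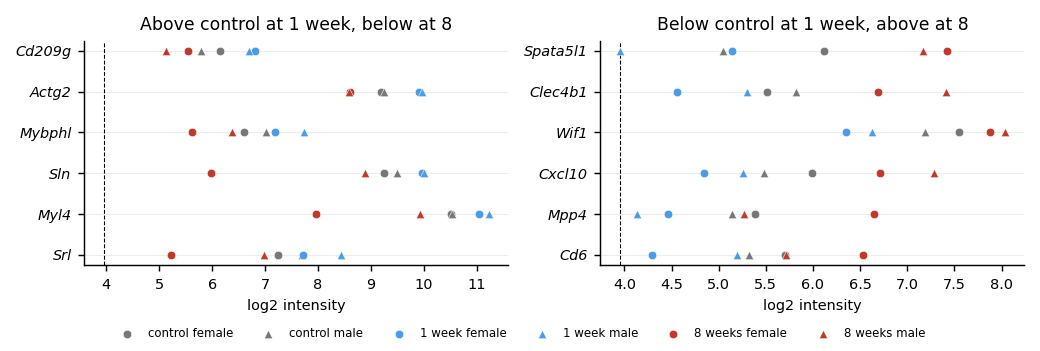
Log2 intensity in each pool (grey control, blue 1 week, red 8 weeks; circles female, triangles male) for the 6 highest-ranked reversing genes of each order, with the floor of 3.95 dashed. Controls lie between the 1-week and 8-week pools of each sex, and the female 8-week pool is lowest for Sln (5.99) and Myl4 (7.96).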

How the data were processed

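The values the authors deposited were linear microarray intensities, 1 column per array, with a lowest value of 10; the summarisation and scaling behind them are not given in the sources used here. The arrays were quantile normalised, values under the 20th percentile (15.457, log2 3.95) were raised to it, log2 was taken, and probe sets with a mean above the 40th percentile were kept. A change against a value at this floor is a lower bound. Gene names came from the platform annotation (34945 probe sets with 1 symbol, 932 with several, 9160 with none), and 13191 of 13215 symbols matched the GRCm38.p6 table. Models were fitted in limma 3.58.1 (R 4.3.3): transgene and sex (3 residual degrees of freedom), and group and sex for 8 weeks against 1 week (2), with Benjamini-Hochberg adjustment over all kept probe sets and a threshold of 0.05. Animals were pooled, so p-values measure the spread between pools. The transgene and sex model takes both durations as 1 group, so this spread includes differences between durations. A gene that differed between durations therefore has a larger standard error there.

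Named genes were the 14 highest and 14 lowest by the smallest of the 4 sex-matched differences, at the smallest-p probe set with 1 symbol, 6 reversing genes of each order, and members of the lists at their brightest 1-symbol probe set. Predicted and clone-named genes were skipped. Bmpr2, Tagln, Id1, Id2, Id3, Smad6 and Xist were always looked up; Ddx3y had no kept probe set with 1 symbol. Members, lists and rules were chosen with earlier results of these data known. The fits were also run on simulated data with independent noise, no sex effect and no floor. These settings differ from the arrays here, so that run does not measure how well changes are detected in them. Promoters came from RefSeq (GRCm38.p6), with entries for 507 of 667 list members. Plots were drawn with matplotlib 3.10.9 (Python 3.11.15). Alternatives to the normalisation, floor, filter, probe sets and model, and leaving out each array, are given in the closing section.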

Additional observations from a re-analysis of the deposited data

Results flagged for a closer look

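Among the 28 highest and lowest genes, 1 had a transgenic pool far from the other 3. Prg4 stood at 9.03 in the male 8-week pool against 6.85 to 7.16 in the others, a gap of 0.861 of the whole range, past the critical value of Dixon's test. Chance alone marks about 1 group in 20, so 1 of 28 is no more than that.

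The 12 reversing genes were marked because every pool of one duration lay on the other side of its control from every pool of the other duration. None of the differences between durations passed in limma (adjusted p between 0.101 and 0.215). Above control at 1 week and below at 8 weeks were Cd209g (−1.41), Actg2 (−1.35), Mybphl (−1.46), Sln (−2.55), Myl4 (−2.18) and Srl (−1.97). In the opposite order were Spata5l1 (2.75), Clec4b1 (2.12), Wif1 (1.47), Cxcl10 (1.95), Mpp4 (1.66) and Cd6 (1.37).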

How the results depend on the processing

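The 28 highest and lowest genes kept their direction under every alternative run, except 1 (Slc15a2 stood at 0.042 with 1 value per gene). They had been chosen because all their sex-matched differences shared a sign. That choice nearly fixed their direction wherever the same probe set was kept, so the kept direction is not evidence of robustness. Higher calls against control numbered 2 with arrays centred on medians (Mndal and the Phgdh probe set shared with Gm6756), 3 with a stricter filter (60th percentile), 3 with trend and robust variances (both Mndal probe sets and that one) and 1 with 1 value per gene (Mndal, 3.48). Adjusted p of Mndal in limma ran from 0.0152 to 0.9996 over the alternatives. Between the durations 62, 752 and 118 passed under the last 3. The cause of these differences was not tested.

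Alike higher and lower counts were 91 and 503 as deposited, where the median change of all probe sets was −0.09 against 0.02, and 87 and 186 with log2(value + 16). They were 72 and 114 with the stricter filter, 105 and 26 with 1 value per gene, and 29 and 19 at 2-fold. With the floor at the 40th percentile 117 were higher, with no filter 535 lower and with exactly 1 symbol 126 lower. With the male control for both sexes 532 were higher, and with the female control 847 and 1018 (both chosen after seeing the data).

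Probe sets above, then below control numbered 13 with log2(value + 16), 21 with the stricter filter and 0 at 2-fold. In the opposite order they were 3, 1 and 2, with 1 at the higher floor, 13 with no filter, and 20 and 13 with the male and female control. With an array left out, the sex-matched differences that used it were lost, so the rule asked for a shared sign over fewer differences. A larger count can come from this looser rule alone, so these counts cannot show how far the classes depend on an array. Leaving out each array gave 167 to 538 alike higher, 228 to 582 lower, 32 to 118 up then down and 18 to 64 down then up. Without the female control they were 375, 431, 65 and 44 in that order, and without the male control 538, 573, 44 and 64. Without the female 1-week pool 273 were higher, 118 up then down and 59 down then up, and without the male 1-week pool 582 were lower and 59 down then up. At 8 weeks, omitting a female pool gave 18 down then up and a male pool 68 up then down and 21 down then up. Sex pairs 1 pool per group and is a term of the model. Without it 0 probe sets passed in limma, with 1102 at an unadjusted p below 0.05 against 1660. With 1 array per sex and group, the number of arrays limits the precision.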
